A study of Mus musculus with 18 samples.

Results

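Transcripts of 38 proteasome genes were followed in NIH 3T3 cells, a mouse embryonic fibroblast line, among 22019 genes of the deposited expression table. The genes were taken by symbol, and the set was picked because genes annotated to the proteasome had less signal in SUN1L than in KDEL cells on the soft gel, so values of that contrast are given as a description without a test. All 38 were found and all 38 passed the filter on low values, which kept 16021 genes. The set held 14 genes of the 20S core particle, 18 of the 19S regulatory particle, 4 of assembly chaperones and 2 of other activators.

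All cells carried a doxycycline-inducible retroviral construct. SUN1L cells expressed SS-HA-Sun1L-KDEL, the lumenal domain of SUN1 that acts as a dominant negative on the LINC complex, which joins the nucleus to the cytoskeleton. KDEL cells expressed SS-GFP-KDEL, a green fluorescent protein kept in the endoplasmic reticulum, and were the control. The constructs were in stable lines, of which the SS-GFP-KDEL line had in addition been sorted for fluorescence, a step that differs between the compared lines. Cells were grown for 48 hr with 1 µg/ml doxycycline on polyacrylamide gels coated with fibronectin, either soft (1 kPa) or stiff (308 kPa). The 6 groups, with libraries named by their serial numbers, were KDEL on 1 kPa (libraries 4, 16 and 28), SUN1L on 1 kPa (3, 15 and 27), KDEL on 308 kPa (8, 20 and 32), SUN1L on 308 kPa (7, 19 and 31), KDEL on 308 kPa with 25 µM Y27632, called Y27 here (12, 24 and 36), and KDEL on 308 kPa with 10 µM blebbistatin, an inhibitor of myosin II (10 and 22). An 18th library, number 34, had labels that contradict each other and entered no comparison.

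The proteasome is the protease that degrades proteins tagged with ubiquitin. Its 20S core is a barrel of alpha and beta rings, and Psmb5, Psmb6 and Psmb7 encode the subunits with chymotrypsin-like, caspase-like and trypsin-like activity. The 19S particle caps the barrel: its base holds the ATPases Psmc1 to Psmc6, which unfold substrates and open the gate, and ubiquitin receptors such as Psmd4 and Adrm1, and its lid holds Psmd14, which removes ubiquitin. Subunits are made in matched amounts, and in mammalian cells the transcription factor Nfe2l1 raises their genes when proteasome activity is short, through antioxidant response elements (ARE) in their promoters.

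Promoter windows, 250 bases before to 50 after a start in RefSeq (GRCm38.p6), were held for 32 of the 38 genes, and were searched on both strands for letters of known motifs. For each member the RefSeq start nearest to the gene's start in the expression table was taken. The 2 starts were farthest apart for Psmd5 (4006 bases), Psmd13 (426) and Psmd1 (232). The ARE letters TGACNNNGC were in 7 of the 32 windows, or 21.9%, against 14.1% of the 14863 windows of tested genes. The ETS letters CCGGAA were in 56.2% against 23.3%, and those of the nuclear respiratory factor encoded by Nrf1, a gene distinct from Nfe2l1 (GCGCA, any base and GCGC), in 18.8% against 8.34%. The GC box GGGCGG was in 65.6% against 56.7%, CCAAT in 40.6% against 37.4% and TATAAA in 12.5% against 8.21%, and the median GC content was 59.0% against 59.3%. None of these strings contains another, and the shares are a description of letters in these windows. The 7 windows with ARE letters were those of Psmb5, Psmb6, Psmc6, Adrm1, Psmd12, Psmd9 and Psme4. Of these, the 4 genes whose values are given library by library are shown from 100 bases before to 20 bases from the start, 5′ to 3′ on the gene's strand, with the ARE letters (or their reverse complement) in capitals, since this is the element through which Nfe2l1 is known to act. On GRCm38.p6 they are chr14:54617976-54618095 on the minus strand for Psmb5, and on the plus strand chr11:70525257-70525376 for Psmb6, chr5:123228090-123228209 for Psmd9 and chr11:30771675-30771794 for Psme4.
Psmb5: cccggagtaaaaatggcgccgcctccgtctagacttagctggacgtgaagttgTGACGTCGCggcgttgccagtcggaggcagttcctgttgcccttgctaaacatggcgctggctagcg
Psmb6: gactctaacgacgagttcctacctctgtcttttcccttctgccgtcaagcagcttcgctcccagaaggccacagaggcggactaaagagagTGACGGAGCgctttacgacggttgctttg
Psmd9: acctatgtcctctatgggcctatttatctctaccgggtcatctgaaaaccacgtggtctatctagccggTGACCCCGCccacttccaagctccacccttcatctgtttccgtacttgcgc
Psme4: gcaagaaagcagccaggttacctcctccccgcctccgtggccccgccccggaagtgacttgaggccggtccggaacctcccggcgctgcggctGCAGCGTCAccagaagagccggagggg
The match began 47 bases before the start in Psmb5, 9 in Psmb6, 31 in Psmd9 and 7 in Psme4, where it lies on the opposite strand.

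**Figure D1:**
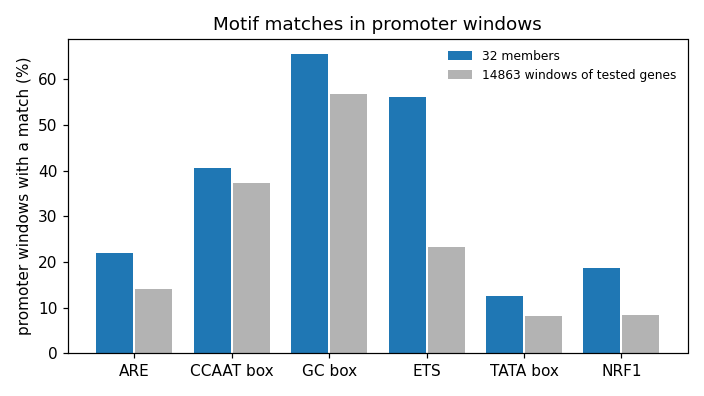
Percentage of promoter windows with at least 1 match to the letters of each motif, for the 32 proteasome genes with a window (blue) and for 14863 windows of all tested genes (grey). The ETS bar is the one farthest above its grey neighbour, 56.2% against 23.3%.

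Levels are normalized signal, the authors' linear value per gene and library, whose lowest value is 1. An estimate from the steps between low values put the libraries at 12670000 to 19460000 read pairs. The defining genes of fibroblasts were high throughout (Col1a1 from 32650 to 118100, Vim from 41870 to 144800), and the 10 fibroblast markers summed to 553100 to 896122 in the 17 grouped libraries. The 6 epithelial markers summed to 99.9 to 316, nearly all of it Cdh1, with Epcam and Krt18 at or under 2.49. The 5 macrophage markers summed to 83.0 to 546, mostly Cd68 and Csf1r, with Emr1 at or under 1.81. The 4 endothelial markers summed to 1065 to 3979 in the Y27 libraries and 334 to 1539 in the others, mostly Tek, with Kdr at or under 11.9, and their part in the Y27 values was not tested. Sun1 had 38450 to 82620 in the SUN1L libraries and 2785 to 3799 in the others, so every library went with its construct label. Libraries 3, 7 and 8, which lie in 3 different groups, stood apart: the mean log2 signal of 20 mitosis genes was 8.57, 8.84 and 9.17 there and 11.45 to 12.23 in the other 14 grouped libraries. Fewer dividing cells and less such RNA per cell cannot be told apart in bulk RNA. Libraries 3, 7 and 8 also had the lowest summed signal, 29.6, 29.8 and 30.8 in a common scaled unit. In the same unit the other 14 grouped libraries had 32.2 to 34.5, with library 32 the highest. The part of this total in the member differences was not tested. The counts and medians over the members are also given without libraries 3, 7 and 8.

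The proteasome genes were abundant, and varied less between libraries of a group than the median over all tested genes, a comparison that was not matched for signal. Their mean log2(signal + 1) over the 17 libraries ran from 9.76 for Psmd10 to 14.50 for Psmd2, against a median of 9.17 over all tested genes. The spread between libraries of a group, as a pooled SD on the log2 scale, had a median of 0.216 over the 38 genes (0.086 for Psmd9 to 0.336 for Psmd3), against 0.307 over all tested genes. From the lowest to the highest of 17 libraries the signal differed 1.35-fold for Psme3 and 2.16-fold for Psmd3, with a median of 1.70-fold. To compare genes with each other, signal was divided by the length of the longest coding transcript. In KDEL cells on 1 kPa the 7 beta ring genes then had 4033 to 7360 signal per kb with a median of 6310, and the 7 alpha ring genes 1713 to 6774 with a median of 3739. The medians were 3516 for the 6 ATPases, 4038 for the 4 other base genes, 2947 for the 8 lid genes and 982 for the 4 chaperones. Psmd2, a scaffold of the base, was highest at 8097 ± 421 signal per kb (SD, n = 3), next to Psmb1 at 7360 ± 762, which is within their spread. Psmd9, a chaperone that assembles the base, was lowest at 514 ± 6.27, next to Psmd10, another base chaperone, at 580 ± 60.8, and these too differed by about their spread. These ranks rest on the length taken, since the transcripts in use were not determined. In undivided signal Psmd10 was the lower, at 830 ± 86.9 against 1336 ± 16.3 for Psmd9.

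On 1 kPa, the contrast by which the set was chosen, all 38 genes had a lower mean log2 signal in SUN1L than in KDEL cells. The differences were small: from -0.37 for Psmd6 to -0.03 for Psme3, with a median of -0.22 on the log2 scale, while the median of all 16021 tested genes was -0.01 and 51.5% of them were lower. The core and the regulatory particle were alike, with medians of -0.25 for the 14 genes of the 20S and -0.23 for the 18 of the 19S. Within the 20S the alpha ring had a median of -0.28 and the beta ring of -0.18, and within the 19S the lid had -0.27 and the ATPases -0.19. The 4 chaperones of the set had -0.15 and the other activators -0.11. For 8 of the 38 genes (Psma1, Psma3, Psmb1, Psmc1, Psmc6, Psmd1, Psmd6 and Psmd9) every SUN1L library was below every KDEL library, and 7.86% of all tested genes had this pattern. No member reached a 2-fold difference in this or in any other comparison.

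**Figure D2:**
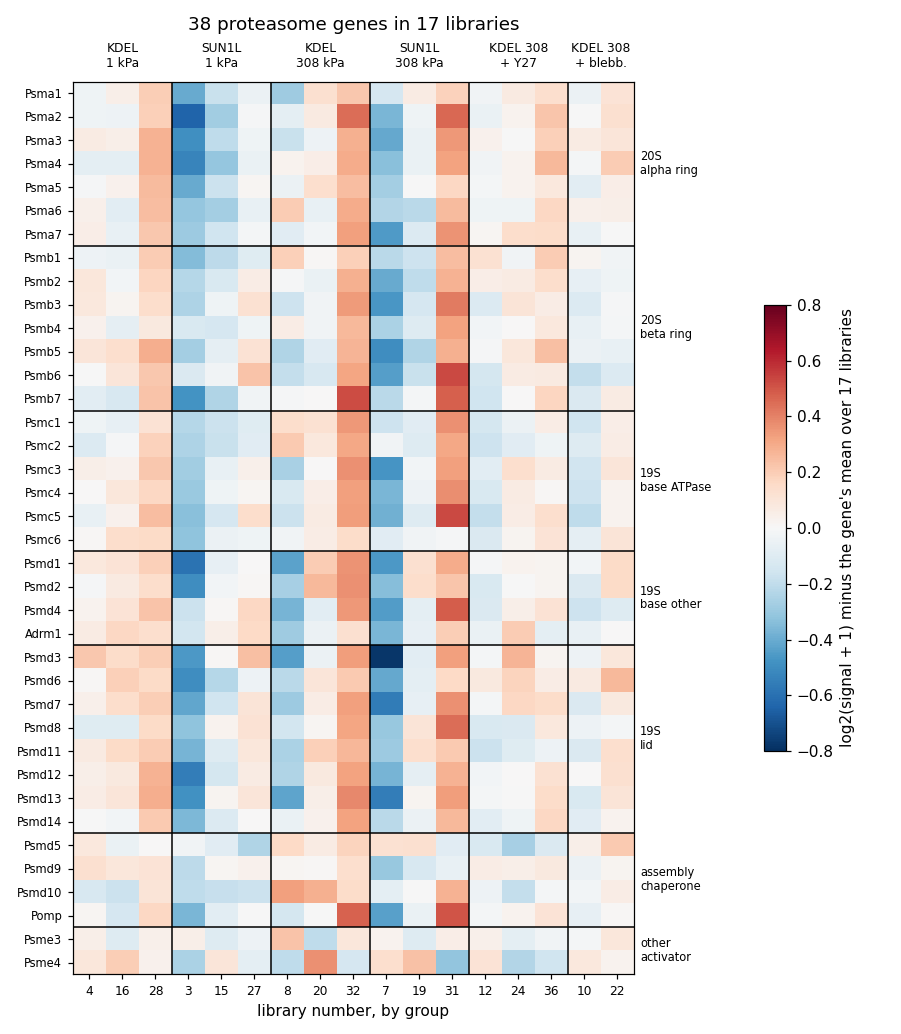
Heat map of the 38 genes (rows, by particle) in 17 libraries (columns, by group), as log2(signal + 1) minus the gene's own mean over the 17 libraries, red above and blue below. Libraries 3 and 7 are blue for nearly every 20S and 19S gene, libraries 31 and 32 are red for most of them, and the rows of Psmd5, Psme3 and Psme4 differ from the rest.

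Psmd6 (ENSMUSG00000021737, chr14:14112184-14120984, minus strand, GRCm38), a lid subunit, had 3247, 3692 and 3594 in KDEL libraries 4, 16 and 28 and 2289, 2761 and 3144 in SUN1L libraries 3, 15 and 27. The SUN1L values were all lower, with library 3 the lowest and library 27 only 103 below the nearest KDEL library. Psma3 (chr12:70974621-70996347, plus strand), of the alpha ring, had 7205, 7095 and 8330 against 4904, 5974 and 6729, again without overlap. Psma2 (chr13:14613242-14625671, plus strand), also of the alpha ring, had 4327, 4324 and 5061 against 2842, 3666 and 4418, and here library 27 lay among the KDEL libraries. Library 3 was lowest for each of these 3 members, which had the largest negative differences, and it was the lowest SUN1L library on 1 kPa for 35 of the 38 members.

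The catalytic subunits went the same way to unequal extents. Psmb5 (ENSMUSG00000022193, chr14:54614120-54617995, minus strand) had 3325, 3409 and 3806 in KDEL and 2575, 2961 and 3373 in SUN1L cells, a log2 difference of -0.25. Psmb7 (chr2:38588036-38644087, minus strand) had 4822, 4693 and 5990 against 3677, 4339 and 5015, also -0.25, with library 27 above libraries 4 and 16. Psmb6 (ENSMUSG00000018286, chr11:70525367-70527858, plus strand) had 5025, 5383 and 5837 against 4650, 4929 and 5892. The highest Psmb6 value was thus in a SUN1L library, and the groups overlapped.

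In the regulatory particle, Psmd14 (chr2:61711694-61800376, plus strand), the deubiquitinase, had 3302, 3255 and 3818 in KDEL and 2574, 3058 and 3317 in SUN1L cells, and Psmd4 (chr3:95032694-95042614, minus strand), a ubiquitin receptor, had 3351, 3545 and 3847 against 2917, 3316 and 3691. Both overlapped through library 27. Psmd8 (chr7:29174188-29180701, minus strand), a lid subunit, was hardly lower, with 2831, 2825 and 3369 against 2416, 3084 and 3272. Pomp (chr5:147860628-147875778, plus strand), which helps the core mature, had 4046, 3649 and 4485 against 3105, 3774 and 3992. The activator Psme3 (chr11:101316213-101323537, plus strand), which opens the core without ubiquitin, had 7036, 6326 and 7011 against 7027, 6342 and 6608, with the groups fully interleaved. Psme4 (chr11:30771726-30880361, plus strand), the large nuclear activator, had 8584, 9232 and 8231 against 6745, 8606 and 7623, again with overlap.

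Library 3 is 1 of the 3 libraries with low mitosis genes, and the differences were smaller without it. Over the remaining libraries 37 of 38 members were still lower, all 14 of the core and 17 of the 19S, with medians of -0.16 for the 20S and -0.11 for the 19S, and the range became -0.25 to 0.08. The medians were then -0.18 for the alpha ring, -0.11 for the beta ring, -0.12 for the ATPases and -0.13 for the lid, and the groups did not overlap for 9 members, against 10.3% of all genes over these libraries. The mitosis genes had a median difference of -1.37 with library 3 and -0.31 without it. Their part in the result was not tested. The serial numbers of the libraries fall into 3 runs (3 to 12, 15 to 24, 27 to 36), each with 1 library of both constructs on both gels, though nothing states what a run was. Within these runs 38, 35 and 35 of the 38 members were lower in the SUN1L library on 1 kPa, with median log2 differences of -0.35, -0.12 and -0.18. What share of all tested genes was lower was not counted without library 3 or within the runs.

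**Figure D3:**
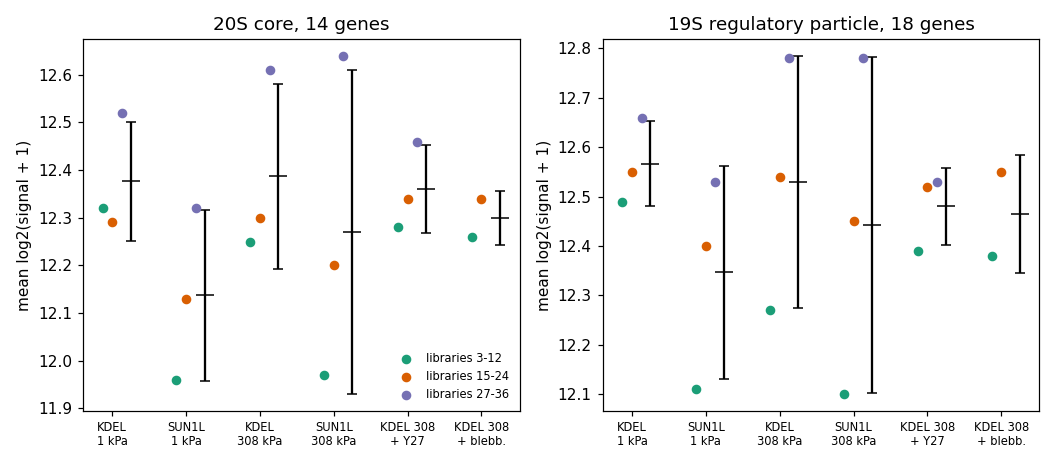
Mean log2(signal + 1) of the 14 core genes (left) and of the 18 regulatory particle genes (right) in each library (points, coloured by run of serial numbers), with the group mean and SD beside them (n = 3, and n = 2 for blebbistatin). In each of the 4 construct and gel groups the library of the last run is the highest, and on 1 kPa the SUN1L point is below the KDEL point of its run in every run.

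On 308 kPa the group means of the same construct comparison came from libraries that the choice of genes did not use, and no member passed the test. The spread in this test was pooled over 12 libraries, among them those on 1 kPa that chose the genes. Of 38 members 34 had a lower mean in SUN1L cells, 13 of 14 in the core and 16 of 18 in the 19S, with medians of -0.13 and -0.10, while 56.5% of all tested genes were lower with a median of -0.03. By limma with Benjamini-Hochberg adjustment 0 of the 38 members and 10 of 16021 genes were called (0.0624%) at an adjusted p under 0.05 and a 2-fold difference, and 0 members had an unadjusted p under 0.05, against 2.53% of all genes. The groups did not overlap for 1 member, Psmd9, which was lower, as were 2.33% of all genes. The 95% intervals of the 38 differences extended a median of 0.41 to each side and reached at most from -0.76 (Psmd3) to 0.54 (Psmd4), so each lay within a 2-fold difference, and 31 lay within 1.5-fold.

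**Figure D4:**
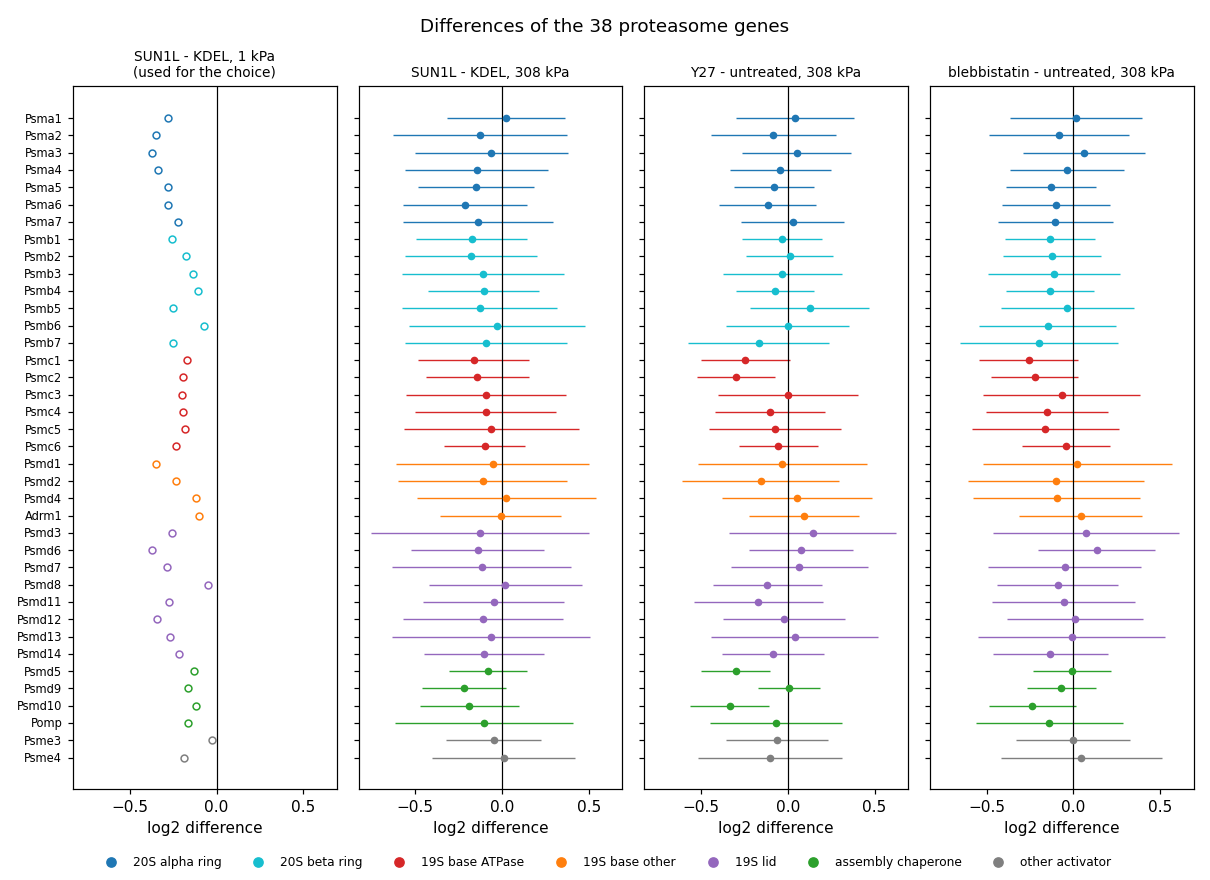
Log2 difference of each of the 38 genes (rows, coloured by particle) in 4 comparisons, with 95% intervals from limma in the 3 tested ones and open points without interval for the contrast that chose the genes. All open points lie left of 0, and on 308 kPa the intervals cross 0 for every gene but Psmc2, Psmd5 and Psmd10 with Y27.

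Psmd9 (ENSMUSG00000029440, chr5:123228190-123250131, plus strand), whose promoter with the ARE letters is printed above, had 1253, 1246 and 1361 in KDEL libraries 8, 20 and 32 and 1001, 1134 and 1187 in SUN1L libraries 7, 19 and 31. All SUN1L values were below all KDEL values, and the log2 difference was -0.22 ± 0.11 (SE, n = 3 against 3). The 95% interval was -0.46 to 0.02, and the gene did not pass the test (limma, adjusted p = 1). On 1 kPa it had 1352, 1320 and 1334 against 1072, 1252 and 1266, also without overlap.

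For the catalytic subunits the libraries of a group differed more than the groups. Psmb5 had 2635, 2922 and 3759 in KDEL and 2208, 2636 and 3793 in SUN1L cells, a log2 difference of -0.13 with a 95% interval of -0.57 to 0.31. Psmb6 had 4412, 4600 and 6260 against 3712, 4446 and 7264, and Psmb7 5095, 5125 and 7362 against 4405, 5061 and 7137. In each case libraries 31 and 32 were far above the other 4, and library 7 was lowest.

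The same shape was seen beyond the catalytic genes. Psmd6 had 2781, 3448 and 3739 in KDEL and 2427, 3059 and 3608 in SUN1L cells, and Psmd14 had 3190, 3379 and 4123 against 2841, 3192 and 3951. Psma2 had 4211, 4665 and 6041 against 3444, 4333 and 6107, and Psma3 had 6092, 6687 and 8377 against 5186, 6619 and 8745. Psmd4 had 2538, 3104 and 4177 against 2414, 3119 and 4591, Psmd8 2738, 3065 and 3773 against 2449, 3245 and 4126, and Pomp 3631, 4001 and 5553 against 2964, 3862 and 5682. All of these overlapped, with library 7 lowest and libraries 31 and 32 highest. The activators did not follow them: Psme3 had 7984, 5911 and 7251 against 6930, 6341 and 7042, and Psme4 10371 in library 20 and 6463 in library 31 as its extremes.

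Library 7 was the lowest SUN1L library on 308 kPa for 34 of the 38 members, and library 31 the highest for 36. The direction of the medians rested on libraries 7 and 32, and their size on library 31 as well. With library 7 left out the medians of the 20S and the 19S came to 0.05 and 0.11. Leaving out KDEL library 32 gave 0.00 and 0.04, and leaving out library 31 gave -0.32 and -0.27. In that last fit 7 members had an unadjusted p under 0.05, but the share of all genes under it was not counted, and 0 members were called. Without libraries 3, 7 and 8 together, 31 of 38 members were lower and the medians were -0.04 and -0.05. Within the runs 36, 34 and 20 of 38 members were lower in SUN1L cells, with medians of -0.23, -0.09 and 0.00. For the runs and for the fits without some libraries, the share of all genes that was lower was not counted. Whether the SUN1L effect on the members differed between the gels was not tested, since the genes were chosen on 1 of them.

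The rigidity comparisons share libraries with the contrast that chose the genes and are given without a test. In KDEL cells the members were balanced between the gels: 20 were lower and 18 higher on 308 kPa, with medians of 0.01 for the 20S and -0.07 for the 19S. In SUN1L cells 30 of 38 were higher on 308 kPa, with medians of 0.15 and 0.13, while all tested genes had a median of -0.01 in each. Values of all 3 libraries on 308 kPa exceeded those on 1 kPa for Psmc1 and Psmd10 in KDEL cells and for Psmd10 in SUN1L cells, against 2.13% and 1.69% of all tested genes. Psmd10 (chrX:140948429-140956728, minus strand), also known as gankyrin, had 793, 767 and 929 in KDEL cells on 1 kPa and 1089, 1054 and 960 on 308 kPa, and in SUN1L cells 752, 761 and 769 and then 821, 864 and 1050. It was thus highest in KDEL cells on the stiff gel, although the SUN1L libraries there overlapped with them. Without libraries 3, 7 and 8 the balance in KDEL cells moved to 31 of 38 higher, with medians of 0.08 and 0.09, and in SUN1L cells to 34 higher. How many of all tested genes were higher was not counted for these remaining libraries. Without library 31 the medians in SUN1L cells were 0.00 and -0.03.

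In KDEL cells on 308 kPa, Y27 and blebbistatin were each compared with the untreated cells, which are the same 3 libraries in both comparisons. With Y27, 24 of 38 members were lower, with medians of -0.03 for the 20S and -0.04 for the 19S, and 47.7% of all tested genes were lower. With blebbistatin 30 were lower, with medians of -0.11 and -0.06, against 48.6% of all tested genes. Within the runs of serial numbers 13, 19 and 37 members were lower with Y27, with medians of 0.05, 0.00 and -0.20. With blebbistatin, which has no library in the last run, 17 and 15 were lower, with medians of 0.04 and 0.02. How many of all tested genes were lower within a run was not counted. By limma 0 members and 0 genes in all (0%) were called with either inhibitor. At an unadjusted p under 0.05 there were 3 members with Y27, all lower, against 5.8% of all genes, and 0 with blebbistatin, against 3.04%. The groups did not overlap, with the treated libraries lower, for 4 members with Y27 (Psmc1, Psmc2, Psmd5 and Psmd10), against 3.62% of all genes, and for 3 with blebbistatin (Psmc1, Psmc2 and Psmd10), against 5.85%. The 95% intervals lay within a 2-fold difference for all 38 members with each inhibitor. They reached at most from -0.61 (Psmd2) to 0.62 (Psmd3) with Y27 and from -0.65 (Psmb7) to 0.61 (Psmd3) with blebbistatin.

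Psmd5 (ENSMUSG00000026869, chr2:34852088-34874968, minus strand), a chaperone of base assembly, had 3097, 2894 and 3141 in untreated and 2549, 2308 and 2562 in Y27 cells. The Y27 libraries were all lower, by -0.30 ± 0.08 on the log2 scale (SE, n = 3 against 3) with a 95% interval of -0.50 to -0.10, but the adjusted p of 0.793 from limma did not pass. With blebbistatin it had 2863 and 3206, a log2 difference of -0.01. Set against each other, blebbistatin was higher than Y27 by 0.29 ± 0.09, with a 95% interval of 0.07 to 0.52 (limma, adjusted p = 1). This was the only member with an unadjusted p under 0.05 between the inhibitors, where 2.32% of all genes had one, and again 0 members and 0 genes (0%) were called.

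Psmd10, another base chaperone, was at 843, 760 and 856 with Y27 and at 852 and 902 with blebbistatin, all below the untreated 1089, 1054 and 960. The log2 differences were -0.34 ± 0.09 (SE, adjusted p = 0.793) and -0.24 ± 0.11 (adjusted p = 1) by limma. Psmc2 and Psmc1 are named here because of their values, which had been seen by then. The ATPase Psmc2 had 8006, 7357 and 8589 untreated, 6179, 6512 and 6749 with Y27, a difference of -0.30 ± 0.09 (limma, adjusted p = 0.793), and 6455 and 7225 with blebbistatin. Psmc1, the ATPase beside it, had 7878, 7785 and 9096 untreated, 6498, 6923 and 7466 with Y27, and 6412 and 7409 with blebbistatin. Psmd9, which also assembles the base, had 1291, 1280 and 1308 with Y27 against 1253, 1246 and 1361 untreated, with overlap, and the other 4 ATPases overlapped too. Of the 4 base genes that are not ATPases, 2 had a lower and 2 a higher mean with Y27.

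The catalytic genes overlapped with the untreated values, though Psmb7 was below all of them in library 12 (Y27) and library 10 (blebbistatin). Psmb5 had 3095, 3306 and 3671 with Y27 and 3008 and 2989 with blebbistatin, against 2635, 2922 and 3759. Psmb6 had 4568, 5267 and 5292, and 4416 and 4663, against 4412, 4600 and 6260. Psmb7 had 4587, 5133 and 5756, and 4715 and 5364, against 5095, 5125 and 7362.

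The untreated libraries themselves were far apart: library 8, with low mitosis genes, was the lowest of the 3 for 28 members, and library 32 was the highest for 35. Without library 8, 36 of 38 members were lower with Y27 and 35 with blebbistatin. The medians of the 20S and the 19S were then -0.09 and -0.17 for Y27 and -0.16 and -0.21 for blebbistatin. In these fits 6 and 1 members had an unadjusted p under 0.05. Neither the share of all genes under it nor the share of all genes that was lower was counted. Without library 32 the medians became 0.09 and 0.08 for Y27 and 0.02 and 0.07 for blebbistatin. The direction over the members thus turned with 1 untreated library, and no member was called in any of these fits.

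The genes that act around the proteasome were looked at as lists. Nfe2l1 (chr11:96817414-96829968, minus strand) had 15332, 13966 and 17250 in libraries 3, 7 and 8 and 10656 to 12509 in the other 14 grouped libraries. It was therefore highest in the libraries with low mitosis genes. Libraries 3 and 7 also had the lowest mean over the proteasome genes among the SUN1L libraries, and library 8 among the KDEL libraries. The log2 difference of Nfe2l1 between SUN1L and KDEL cells was 0.21 on 1 kPa, and 0.10 without library 3. With all libraries, all SUN1L values on 1 kPa (15332, 12284 and 12248) were above all KDEL values (10813, 12166 and 11417). On 308 kPa the difference was -0.12 ± 0.19 (SE, limma, adjusted p = 1). The related factor Nfe2l2 had 1587 to 3226 in the SUN1L and 1740 to 2760 in the KDEL libraries on these gels, without separation. Of the 8 genes that regulate this response 5 were lower on 1 kPa. On 308 kPa 7 were lower, and 1 had an unadjusted p under 0.05: Ngly1, a glycanase that activates Nfe2l1, named after its values were seen, with 437, 563 and 413 in KDEL and 360, 361 and 342 in SUN1L cells (limma, log2 difference -0.40 ± 0.15, adjusted p = 1).

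**Figure D5:**
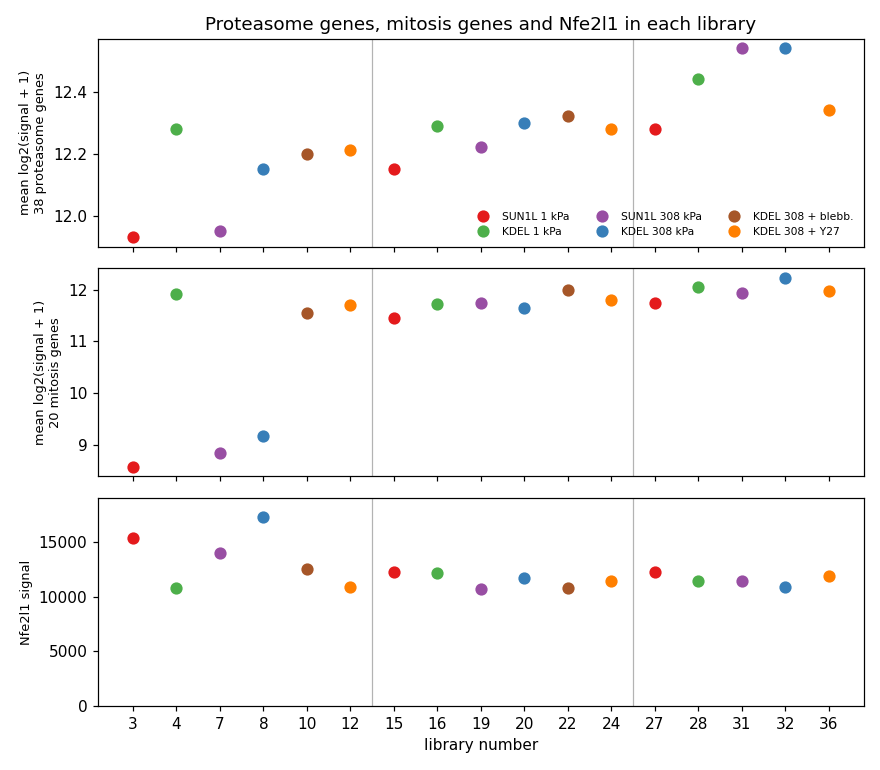
Mean log2(signal + 1) of the 38 proteasome genes (top) and of 20 mitosis genes (middle), and Nfe2l1 signal (bottom), for the 17 grouped libraries in the order of their serial numbers, coloured by group, with grey lines between the 3 runs. Libraries 3, 7 and 8 are the lowest for mitosis genes and the highest for Nfe2l1, and libraries 3 and 7 are the lowest for the proteasome genes.

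Among 13 genes for proteins that bind the proteasome, 12 had a lower mean with SUN1L on the soft gel and 9 on the stiff gel, with 0 at an unadjusted p under 0.05 on 308 kPa by limma. Without library 3 the count on 1 kPa was 10. Uchl5, a deubiquitinase bound to Adrm1, ranged most: it had 2109, 1970 and 2484 in KDEL and 841, 1646 and 1963 in SUN1L cells on 1 kPa, and 883, 1608 and 2783 against 920, 1640 and 2485 on 308 kPa. Its lowest values were in libraries 3, 8 and 7. Usp14, the deubiquitinase at the base, had 5273, 5103 and 4979 against 3923, 4581 and 4502 on 1 kPa, without overlap, and 4135, 4992 and 4974 against 4435, 4965 and 4204 on 308 kPa, with overlap. The 8 genes of the chaperonin TRiC, another large ring complex, had a median of -0.19 on 1 kPa, where all 8 were lower (-0.09 and 6 without library 3), and of -0.09 on 308 kPa, where 7 were lower and 0 had an unadjusted p under 0.05. Further lists were more even on 1 kPa. Of 6 genes of assembly, import and regulation (Psmg1 to Psmg4, Akirin2 and Psmf1) 3 were lower, with a median of 0.01. Of 9 genes for ubiquitin and its activating or conjugating enzymes 5 were lower, with a median of -0.01. Of the 5 genes Psmb8, Psmb9, Psmb10, Psme1 and Psme2, 1 was lower, with a median of 0.01. On 308 kPa 5, 7 and 1 of them were lower, with medians of -0.16, -0.05 and 0.04.

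The immunoproteasome, whose catalytic subunits replace the standard ones in immune cells and after interferon, was uneven. Psmb8 had 1.00 to 11.96 signal and Psmb9 38.1 to 102 over the 17 libraries, while Psmb10 had 366 to 721. Per kb, Psmb10 had 447 ± 43.3 in KDEL cells on 1 kPa (SD, n = 3), below every member of the set. Psmb10 was 681, 721 and 701 with Y27 against 404, 447 and 569 in untreated cells, a log2 difference of 0.58 ± 0.15 without overlap (limma, adjusted p = 0.793), and 679 and 564 with blebbistatin, which overlapped. No gene named here passed the adjusted test with Y27.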

How the data were processed

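Polyadenylated RNA of NIH 3T3 cells was sequenced as paired reads in 18 libraries. The authors aligned reads with TopHat 2.0, filtered them in AvadisNGS by base quality, alignment score, mapping quality, mates and duplicates, scaled genes by the trimmed mean of M-values and deposited linear signal values with 1 as the lowest. Their methods name mm9, but the gene positions in the table lie on GRCm38. The estimated 12670000 to 19460000 read pairs set the precision of low values, and whole reads were not recovered, so no count test was run. Columns were matched to samples by their headings.

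From the signal, log2(signal + 1) was fitted for the 16021 of 22019 genes that exceeded the lowest value in 3 or more libraries, with limma 3.58.1 in R 4.3.3 (trend, 1 mean per group, 12 libraries for SUN1L against KDEL and 8 for the inhibitors). Tests were two-sided, with Benjamini-Hochberg adjustment over all genes and a call at adjusted p under 0.05 with 2-fold. The fits were also run on simulated data, with differences larger than those of any member and noise drawn independently for each gene and library. Shifts shared by the genes of a library were not simulated. Lengths are those of the longest coding transcript in GENCODE vM1 by gene identifier, for all 38 genes. Promoters are from RefSeq. The members and all gene lists were chosen with earlier results of these data known. Library values are given for the catalytic genes, Pomp, Psme3, Psme4, Psmd4, Psmd14, the 3 largest and 3 smallest differences on 1 kPa and the smallest p of each test, and, of the other lists, for Nfe2l1, Nfe2l2, Psmb8, Psmb9, Psmb10, Usp14 and Uchl5. Others named for their values are marked. The authors name 3 biological replicates a group. Nothing states which libraries share a day.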

Additional observations from a re-analysis of the deposited data

How the results depend on the processing

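The alternatives were no filter or a filter at a mean signal of 10, pseudocounts of 8 and 0.1, added quantile normalization, 1 fit of all 17 grouped libraries, limma without trend, no 2-fold limit, a block on the serial number runs, each library left out in turn and, chosen after the data were seen, leaving out libraries 3, 7 and 8. The number of members called was 0 in every tested comparison and setting. Of 310 values of counts and medians over the alternatives, 306 were counts equal or close to the main count or medians that moved by less than the spread between libraries. The counts of 0 members called are among them. A median could change its sign within that spread, as those of SUN1L against KDEL on 308 kPa did, so the 306 do not show a stable direction. On 308 kPa the genes called between SUN1L and KDEL cells numbered 10, and 16 with all 17 libraries in 1 fit and 5 without libraries 3, 7 and 8. With Y27 they numbered 0, and 3 without libraries 3, 7 and 8 or without library 8 alone. Leaving out 1 library at a time, the 1 kPa medians ranged from -0.35 to -0.16 (20S) and -0.30 to -0.11 (19S), and those of SUN1L against KDEL on 308 kPa from -0.32 to 0.05 and -0.27 to 0.11. With the replicate block on the runs, which the labels do not state to pair libraries, 12 genes and 0 members were called between SUN1L and KDEL cells on 308 kPa, with medians of -0.13 and -0.10, and 0 members and 0 genes with either inhibitor. The block moved the blebbistatin medians from -0.11 and -0.06 to -0.03 and 0.01. Members with an unadjusted p under 0.05 between SUN1L and KDEL cells on 308 kPa numbered 0, and 2 with the block and 1 without the filter or with all 17 libraries in 1 fit. With blebbistatin they numbered 0, and 3 with quantile normalization. The share of all genes under this limit was not counted in these settings, so the counts are not read as a result about the members.

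Psme3 on 1 kPa turned from -0.03 to 0.07 with quantile normalization. With 3 libraries a group, or 2 for blebbistatin, the 95% margins of the members had medians of 0.32 to 0.41 on the log2 scale in the tested comparisons. These margins are not adjusted for the number of genes. A call also needed an adjusted p under 0.05 and a 2-fold difference, so outside the setting with no 2-fold limit no smaller difference could be called.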

Other observations

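Library 34 is labelled an empty vector with Y27 in 1 field and an empty vector with blebbistatin in another, and its column is headed Y27. A further heading of that column carries a serial number other than that of the sample title. Its values belong to no comparison. The mean log2(signal + 1) was 12.54 over the 14 core genes and 12.66 over the 18 genes of the regulatory particle, and 12.15 over the 20 mitosis genes. Psmb5 had 3864, Psmb6 5254, Psmb7 6084, Psmd5 2957, Psmd9 1444 and Psmd10 1016 signal, and Psmb10 had 526.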
